A study of Mus musculus with 6 samples.

Results

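The subject here is the set of genes for heterotrimeric G protein subunits and their Ric8 partners, 34 in all, followed across 3 mouse cell populations. They were chosen by name, as 15 alpha, 5 beta and 12 gamma subunit genes and the pair Ric8a and Ric8b, and every probe set (a group of array probes for 1 transcript) with 1 of these symbols was taken. The arrays held 84 such probe sets among 45137, 60 on chip A and 24 on chip B, and they stood for 33 of the 34 genes. Gng5 was covered only by probe sets that name several genes and has no value.

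The populations were odour-detecting cells of the nose, that is mature olfactory sensory neurons (OSNs) collected by their green fluorescence, then the olfactory epithelium left without them (the residual epithelium, or residual cells), and brain without the olfactory bulbs. All came from OMP-GFP mice, in which GFP stands in place of the coding region of Omp, a gene of mature olfactory and vomeronasal neurons. RNA came from about 500000 sorted cells and about 2500000 cells of the residual epithelium. The labels do not say whether 1 or both Omp alleles were replaced, nor the age, sex or number of the mice. Each population was read on 1 array of chip A and 1 of chip B, which carry different probe sets, so no value has a replicate and no test across samples exists.

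A heterotrimeric G protein carries a signal from a receptor to an enzyme or channel inside the cell. The alpha subunit binds GTP when the receptor is active and leaves the beta-gamma pair, and each of them then acts on its own targets. In OSNs an odour-bound receptor activates the alpha subunit known as G olf, which stimulates adenylyl cyclase type III, and cyclic AMP opens the olfactory cation channel. Ric8 proteins help newly made alpha subunits to fold and speed their nucleotide exchange, Ric8b for the G s and G olf kind and Ric8a for the others.

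Values are array signals (intensity, in arbitrary units). They can be compared for 1 probe set between populations, not between probe sets. Signals below the lower quartile of a chip (70.3 on chip A, 79.7 on chip B) were raised to it before a ratio was taken, and this level is called the floor. Where the floor stood in for the lower signal, the ratio is a bound, written "at least". Where a pair of fold values is given for a probe set, the first compares OSNs with residual epithelium and the second compares OSNs with brain. A comparison counted a gene if at least 1 signal was at or above the median of its chip (222 on chip A, 243.7 on chip B), and called it higher or lower from 2-fold. The brightest probe set, by percentile of mean log2 signal within its chip, stands for each gene, and the others are given beside it. For 11 genes there was only 1 probe set, among them Gnb2, Gng3, Gng7, Gng8, Gng10, Gng11 and Gngt2, so no second reading exists.

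The sorted cells carried the marks of mature OSNs. The Omp signal was 11057 in sorted OSNs, 248.8 in the residual epithelium and 201.4 in brain, and all 4 mature OSN markers measured (Omp, Cnga2, Adcy3 and Stoml3) were at least 2-fold higher in sorted OSNs than in either other population. Summed markers of neutrophils were 1466.2 in sorted OSNs, 66460.5 in the residual epithelium and 941.1 in brain, with 6 of 6 genes at least 2-fold lower in sorted OSNs than in the residual epithelium. For macrophages the sums were 1156.0 in OSNs, 18155.9 in residual cells and 3666.0 in brain, with 4 of 4 counted genes lower. Lymphocyte (4 of 4) and erythroid (2 of 2) markers were lower too, and Camp, Cd79b, Ikzf1, Hba-a1, Alas2 and Slc4a1 were at the floor in sorted OSNs. Summed brain neuron markers on chip A were 5451.1 in sorted OSNs, 865.9 in the residual epithelium and 20634.2 in brain. On chip B they were 23400.5 in OSNs, 3716.6 in residual cells and 29652.3 in brain, mostly Syt1, so OSNs and brain were closer there. Summed brain glia markers on chip A were 307.6 in OSNs, 374.6 in residual cells and 12998.8 in brain. Of 5 counted supporting and gland cell genes, Krt18 (5.13-fold) and Obp1a (5.24-fold) were lower in sorted OSNs than in the residual epithelium, and the list median was -0.59. Cyp2g1, another of them, gave 3821.8 in sorted OSNs, 2657.3 in the residual epithelium and 102.7 in brain. In such bulk samples fewer cells of a type and less RNA per cell cannot be told apart, and the part of these cells in the ratios below was not tested except where a value is set beside them.

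Within the alpha, beta and gamma families members differed widely. In OSNs 1 member of a family was above the other populations while a relative was far below them. Gnal stood against Gnas, Gnb1 against Gnb2 and Gng13 against Gng2, while Ric8b was high and Ric8a level by its main probe set. Of the 27 members that reached the chip median in any population, 4 were at least 2-fold higher in sorted OSNs than in both others (Gnal, Gnb1, Gng13 and Ric8b), against 6.53% of all 13315 such genes. Residual epithelium was highest by that margin for 3 (Gnai3, Gng8 and Gngt2), which held for 1338 of the 13315 genes. Brain was highest for 8 (Gnas, Gnai1, Gnaz, Gna11, Gnb5, Gng3, Gng7 and Gng11), against 12.9%. Gnaz, Gng7 and Gng11 reached the chip median in brain only and Gngt2 in the residual epithelium only, so the filter fixed which population was highest for them.

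**Figure D1:**
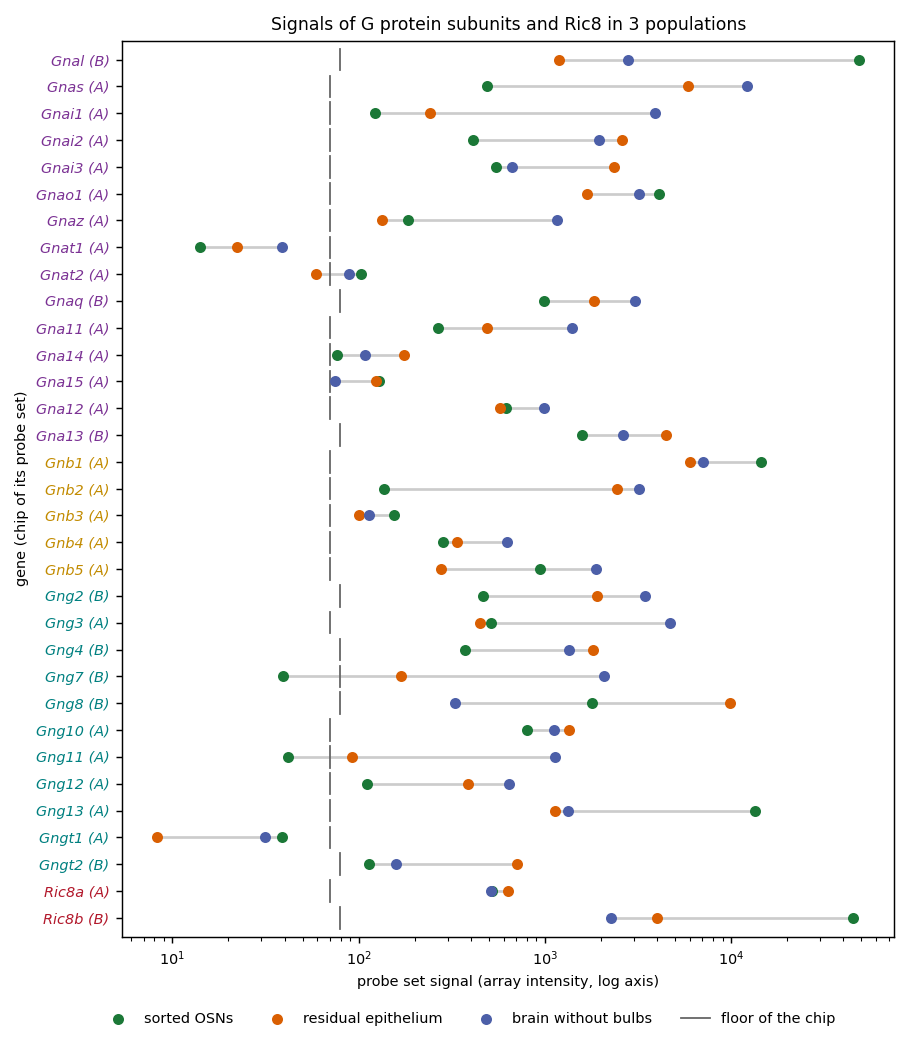
Signal (log axis, array intensity) of 33 genes in sorted OSNs (green), residual epithelium (orange) and brain without bulbs (blue), 1 array each, with the chip of the probe set in brackets and the floor as a vertical tick. Points can be compared within a row only. Gnal, Gnb1, Gng13 and Ric8b have their green point at the right, and Gnas, Gnb2, Gng2 and Gnai2 have it at the left.

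The G s family showed the widest split. Gnal encodes the alpha subunit G olf, and its signal was 48746 in sorted OSNs, 1187 in the residual epithelium and 2778.5 in brain. The OSN signal thus lay 41.1-fold above residual epithelium and 17.5-fold above brain, where Gnal is known from the striatum. Among 12254 counted genes this ratio over residual epithelium ranked 11th from the top. A second probe set gave 29859 in OSNs, 936.1 in residual cells and 3027 in brain, 31.9-fold and 9.86-fold higher, and the third gave 882.1 in OSNs, 392.3 in residual cells and 559.2 in brain, 2.25-fold and 1.58-fold higher. All 3 put OSNs highest, but they differed by up to 4.19 log2 units in size.

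Gnas encodes G s alpha, the form through which most other tissues stimulate adenylyl cyclase. Its main probe set read 485.7 in sorted OSNs, 5866 in the residual epithelium and 12139 in brain, so OSNs were 12.1-fold below residual epithelium and 4.64 log2 units below brain. On chip B another Gnas probe set gave 90.5 in OSNs, 307.3 in residual cells and 197.0 in brain, a log2 ratio of -1.76 for OSNs over residual epithelium. A further 3 probe sets stayed below the chip median in every population, 2 of them below the floor. The locus makes several transcripts, and which of them each probe set reads was not examined. The log2 ratio of OSNs over residual epithelium was 5.36 for Gnal and -3.59 for Gnas, a difference of 8.95 log2 units, and the smallest difference between any counted probe sets of the pair was 2.93.

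Residual epithelium and brain did not show this opposition. Gnal was 2.34-fold lower and Gnas 2.07-fold lower in the residual epithelium than in brain. The chip B probe set of Gnas went the other way, 1.56-fold higher, so the direction for Gnas between these populations rests on the probe set. With the median over probe sets the log2 ratio was -0.20 and the call was lost.

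The G i family acts mainly to lower cyclic AMP and to release beta-gamma, and its members went in different directions. Gnai2 gave 412.5 in sorted OSNs, 2601.6 in the residual epithelium and 1952.9 in brain, 6.31-fold and 4.73-fold lower in sorted OSNs. Its other probe set gave 8.0 in OSNs, 1070.8 in residual cells and 826.3 in brain, at least 15.2-fold and at least 11.8-fold lower. Summed neutrophil and macrophage markers were also lower in sorted OSNs than in the residual epithelium. Against brain the macrophage sum was lower in sorted OSNs (Csf1r 5.55-fold) and the neutrophil sum was not, and the part of these cells in the Gnai2 ratios was not tested. Gnai2 is also the alpha subunit of apical vomeronasal neurons.

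Gnai3, another inhibitory subunit, was highest in the residual epithelium by its main probe set. It gave 545.3 in sorted OSNs, 2350.2 in the residual epithelium and 666.4 in brain, 4.31-fold lower in sorted OSNs than in the residual epithelium and within 2-fold of brain. Its other probe set was below the chip median throughout and not counted (79.9 in OSNs, 100.8 in residual cells and 122.6 in brain). Gnai1 belonged to brain, with 122.6 in OSNs, 242.8 in residual cells and 3879.7 in brain, and OSNs were 31.6-fold below brain. Its other probe sets gave 111.7 in OSNs, 104.6 in residual cells and 1546.3 in brain, and 22.0 in OSNs, 58.6 in residual cells and 692.7 in brain, with the same brain peak. Between OSNs and residual epithelium the main Gnai1 probe set lay just inside the 2-fold line at -0.99 log2 units.

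Gnao1, the alpha subunit G o of many neurons and of basal vomeronasal neurons, was the 1 called member of this family above residual epithelium. It gave 4112 in sorted OSNs, 1688 in the residual epithelium and 3213 in brain, 2.44-fold higher in sorted OSNs than in the residual epithelium and 1.28-fold higher than in brain. A weak probe set with 18.5 in OSNs, 22.1 in residual cells and 240.2 in brain was at least 3.42-fold lower in sorted OSNs than in brain, and another with 143.7 in OSNs, 193.0 in residual cells and 192.8 in brain was not counted. Gnaz, an alpha subunit insensitive to pertussis toxin and known from neurons and platelets, gave 184.1 in OSNs, 134.2 in residual cells and 1165.4 in brain. It was 6.33-fold lower in sorted OSNs than in brain, and 7.49-fold lower by its second probe set (92.3 in OSNs, 180.9 in residual cells and 691.7 in brain). The rod transducin gene Gnat1 was below the floor in all 3 populations (14.1 to 38.9), and the cone gene Gnat2 lay between 58.9 and 103.3, below the chip median.

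Alpha subunits of the G q family activate phospholipase C beta. Gnaq gave 986.5 in sorted OSNs, 1831.3 in the residual epithelium and 3040.5 in brain, 1.86-fold and 3.08-fold lower in sorted OSNs. Over its 5 counted probe sets the log2 ratio of OSNs over residual epithelium ran from -1.16 to -0.36. Over the 6 counted in OSNs over brain it ran from -2.54 to -1.12. In the residual epithelium over brain 6 were counted, from -1.97 to -0.14. The main one was within 2-fold there, at -0.73, so the lack of a call depends on the probe set. Gna11 followed the same order with 266.1 in OSNs, 486.0 in residual cells and 1393.4 in brain, and its second probe set gave 359.6 in OSNs, 438.5 in residual cells and 978.5 in brain. OSNs were 5.24-fold below brain by the first and 2.72-fold by the second. Gna14 and Gna15 stayed below the chip median by their main probe sets, with Gna14 highest in the residual epithelium (76.5 in OSNs, 174.4 in residual cells and 108.0 in brain). A chip B probe set of Gna14 (23.9 in OSNs, 257.1 in residual cells and 16.0 in brain) was under the floor in both OSNs and brain. Gna15, known from blood cells, gave 128.3 in OSNs, 123.5 in residual cells and 74.8 in brain.

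Subunits of the G12 family are known for their action on the cytoskeleton. Gna13 gave 1572.7 in sorted OSNs, 4456 in the residual epithelium and 2619.6 in brain, 2.83-fold lower in sorted OSNs than in the residual epithelium. Its 5 counted probe sets ran from -1.50 to -0.79 log2 units in that comparison, so not all of them reached 2-fold. Between residual epithelium and brain its 6 counted probe sets disagreed in sign, from -1.22 to 0.77. Gna12 was level, with 618.2 in OSNs, 574.5 in residual cells and 987.9 in brain, and stayed within 2-fold in all 3 comparisons by its main probe set. By 2 other probe sets it was 2.66-fold and 2.22-fold lower in the residual epithelium than in brain.

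Beta subunits form a tight dimer with a gamma subunit. Gnb1 gave 14521 in sorted OSNs, 6027 in the residual epithelium and 7053 in brain, 2.41-fold and 2.06-fold higher in sorted OSNs. A second probe set gave 9475 in OSNs, 2534.5 in residual cells and 2278 in brain, which was 3.74-fold and 4.16-fold higher, and the third was near the floor. The call against brain for the main probe set was lost when arrays were scaled on probe sets common to both chips (log2 ratio 0.87 in place of 1.04), under quantile normalization (0.93) and with ratios centred on the median gene.

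Gnb2, a close relative of Gnb1 found in most cells, had the lowest ratio of all members within the epithelium. It gave 137.5 in sorted OSNs, 2447.4 in the residual epithelium and 3187.7 in brain, 17.8-fold and 23.2-fold lower in sorted OSNs. It ranked 93rd from the bottom of 12254 counted genes in sorted OSNs over residual epithelium. It has a single probe set, and its OSN signal was under the chip median, so it was counted through the other populations. Gnb1 and Gnb2 differed by 5.42 log2 units in sorted OSNs over residual epithelium and by 5.58 in sorted OSNs over brain, but by 0.15 in the residual epithelium over brain.

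Gnb5, the divergent beta subunit that pairs with R7 RGS proteins in neurons, followed a pattern of its own. With 936.1 in sorted OSNs, 276.2 in the residual epithelium and 1890.7 in brain it was 3.39-fold higher in sorted OSNs than in the residual epithelium and 2.02-fold lower than in brain, the last lost with a pseudocount in place of the floor (log2 ratio -0.98). Gnb4 gave 283.6 in OSNs, 335.7 in residual cells and 628.2 in brain and was 2.22-fold lower in sorted OSNs than in brain, with all 3 probe sets in that direction (-1.58 to -1.15 log2 units) and the call lost under quantile normalization (-0.99). Gnb3, known from cones and taste cells, was below the chip median throughout (154.4 in OSNs, 100.8 in residual cells and 114.0 in brain).

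Gamma subunits anchor the complex to the membrane through a lipid tail. Gng13, a gamma subunit known from OSNs and taste cells, gave 13387.5 in sorted OSNs, 1126.8 in the residual epithelium and 1329.3 in brain. OSNs were 11.9-fold above residual epithelium and 10.1-fold above brain. A weak second probe set on chip B gave 275.9 in OSNs, 113.0 in residual cells and 80.9 in brain, 2.44-fold and 3.41-fold higher, so the direction held and the size did not.

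Gng8, first known from olfactory and vomeronasal epithelium, peaked instead in the residual epithelium. By its single probe set the signal was 1796 in sorted OSNs, 9811 in the residual epithelium and 328.6 in brain. OSNs were 5.46-fold below residual epithelium and 5.47-fold above brain, and residual epithelium was 29.9-fold above brain. That ratio ranked 68th from the top of 12916 counted genes. Of 4 other immature OSN and progenitor markers measured, Neurod1 and Neurog1 were lower in sorted OSNs (29.2-fold and at least 16.9-fold), and Gap43 and Stmn2 were within 2-fold. Their summed signals were 7816.0 in OSNs, 17943.2 in residual cells and 11565.0 in brain, and their part in the Gng8 ratio was not tested.

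The remaining gamma genes were low in sorted OSNs or level. Gng2, a widely used gamma subunit, gave 465.6 in sorted OSNs, 1899.3 in the residual epithelium and 3465.5 in brain, 4.08-fold and 7.44-fold lower. A second probe set gave 163.1 in OSNs, 998.7 in residual cells and 2804.8 in brain. The chip A probe sets gave 18.2 in OSNs, 350.3 in residual cells and 263.6 in brain, and 6.5 in OSNs, 198.6 in residual cells and 454.2 in brain, both under the floor in sorted OSNs. All 4 were lower in sorted OSNs than in brain, by 1.91 to 4.10 log2 units where those at the floor are bounds.

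Gng4 gave 371.2 in sorted OSNs, 1817.3 in the residual epithelium and 1342.3 in brain, 4.90-fold and 3.62-fold lower. Its other probe sets were weak, with 60.8 in OSNs, 65.1 in residual cells and 223.1 in brain, and 37.2 in OSNs, 121.1 in residual cells and 122.2 in brain. Gng12 gave 111.4 in OSNs, 385.9 in residual cells and 644.5 in brain, 3.46-fold and 5.79-fold lower, and its second probe set (79.4 in OSNs, 390.4 in residual cells and 434.9 in brain) was 4.92-fold and 5.48-fold lower. Gngt2, a cone gamma subunit, was highest in the residual epithelium (113.9 in OSNs, 709.2 in residual cells and 158.7 in brain), 6.23-fold lower in sorted OSNs. Summed neutrophil, macrophage and lymphocyte markers were also highest in the residual epithelium, and their part in its ratio was not tested. Gng10 was level (805.9 in OSNs, 1347.4 in residual cells and 1123.1 in brain), and all 4 probe sets of the rod gene Gngt1 were below the floor.

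A group of 3 gamma genes, each read by a single probe set, marked brain. Gng3, abundant in brain neurons, gave 511.9 in sorted OSNs, 449.3 in the residual epithelium and 4700.9 in brain, 9.18-fold lower in sorted OSNs. Gng7, which pairs with G olf in the striatum, gave 39.2 in OSNs, 169.1 in residual cells and 2073.3 in brain and its log2 ratio of OSNs over brain was -4.70, a bound. Gng11 gave 42.0 in OSNs, 91.7 in residual cells and 1127.3 in brain and was at least 16.0-fold lower. Gng7 was thus under the floor in the population where the Gnal signal was highest.

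**Figure D2:**
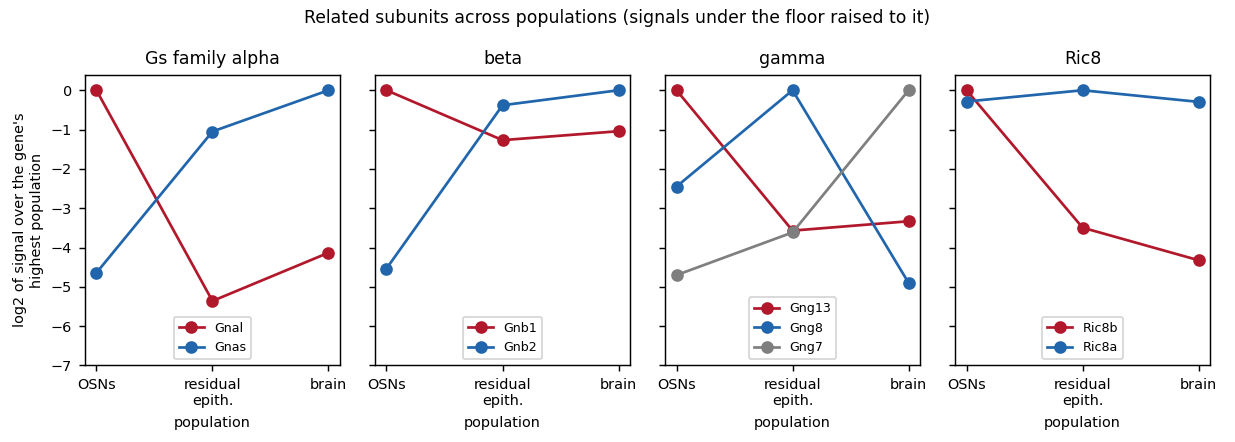
Log2 of each gene's signal over its highest population, in sorted OSNs, residual epithelium and brain, 1 array each, for related subunits. Gnal and Gnas cross, Gnb2 is lowest in sorted OSNs where Gnb1 is highest, Gng13, Gng8 and Gng7 peak in different populations, and Ric8a is flat beside Ric8b. Lines only join the points of a gene.

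Of the exchange factor genes, Ric8b was highest in OSNs and Ric8a was level by its main probe set. Ric8b gave 45257.5 in sorted OSNs, 4012 in the residual epithelium and 2259 in brain, 11.3-fold higher in sorted OSNs than in the residual epithelium and 4.32 log2 units above brain. Its second probe set gave 8594 in OSNs, 1493 in residual cells and 1014 in brain, 5.75-fold and 8.47-fold higher. Ric8a gave 518.9 in OSNs, 632.8 in residual cells and 515.6 in brain, so by this probe set the 3 populations were level. Its other probe sets gave 277.3 in OSNs, 201.0 in residual cells and 349.4 in brain, then 287.1 in OSNs, 238.1 in residual cells and 274.3 in brain, then 169.7 in OSNs, 379.4 in residual cells and 127.0 in brain. The last of these was 2.24-fold lower in sorted OSNs than in the residual epithelium while the other 3 were within 2-fold. That probe set was also 2.99-fold higher in the residual epithelium than in brain, where the other 3 were again within 2-fold. The smallest difference between any counted Ric8b and Ric8a probe sets was 2.06 log2 units over residual epithelium and 3.02 over brain.

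Gnal, Gng13 and Ric8b were the 3 members at least 4-fold higher in sorted OSNs than in both other populations. Many OSN genes carry a site for EBF (Olf-1) factors near the start. The full motif was taken as the core CCCNNGGG with a T before it and an A after it. RefSeq promoter sequences (GRCm38.p6, 250 bases before to 50 after the start) are shown for Gng13 and Ric8b because they belong to these 3 genes. No Gnal promoter was used here, and Gnal is not among the promoters counted below. Capitals mark core matches, and the core reads the same on both strands.
Gng13, chr17:25716922-25717221, plus strand: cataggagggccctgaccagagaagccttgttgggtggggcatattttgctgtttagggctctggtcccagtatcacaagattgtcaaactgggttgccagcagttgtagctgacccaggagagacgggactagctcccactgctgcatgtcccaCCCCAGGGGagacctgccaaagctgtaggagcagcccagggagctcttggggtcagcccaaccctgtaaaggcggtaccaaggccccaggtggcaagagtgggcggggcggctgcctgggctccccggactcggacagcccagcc
Ric8b, chr10:84917363-84917662, plus strand: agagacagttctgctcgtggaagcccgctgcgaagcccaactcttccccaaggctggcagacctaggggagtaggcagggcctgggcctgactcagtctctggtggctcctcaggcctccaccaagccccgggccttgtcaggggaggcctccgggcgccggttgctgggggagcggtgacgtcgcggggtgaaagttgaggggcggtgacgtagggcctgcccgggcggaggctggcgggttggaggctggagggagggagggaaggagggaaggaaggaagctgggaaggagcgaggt
The Gng13 window held 2 overlapping core matches, which start 95 and 94 bases before the gene start. Neither the Ric8b window nor a second annotated Gng13 start had one. The full motif was in none of these windows and in 0 of 33 promoters of 26 member genes, and it was in 0.904% of all 32851 promoters. The core was in 7 of the 33 and in 13.7% of all. A match describes letters in this window and not a bound site.

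**Figure D3:**
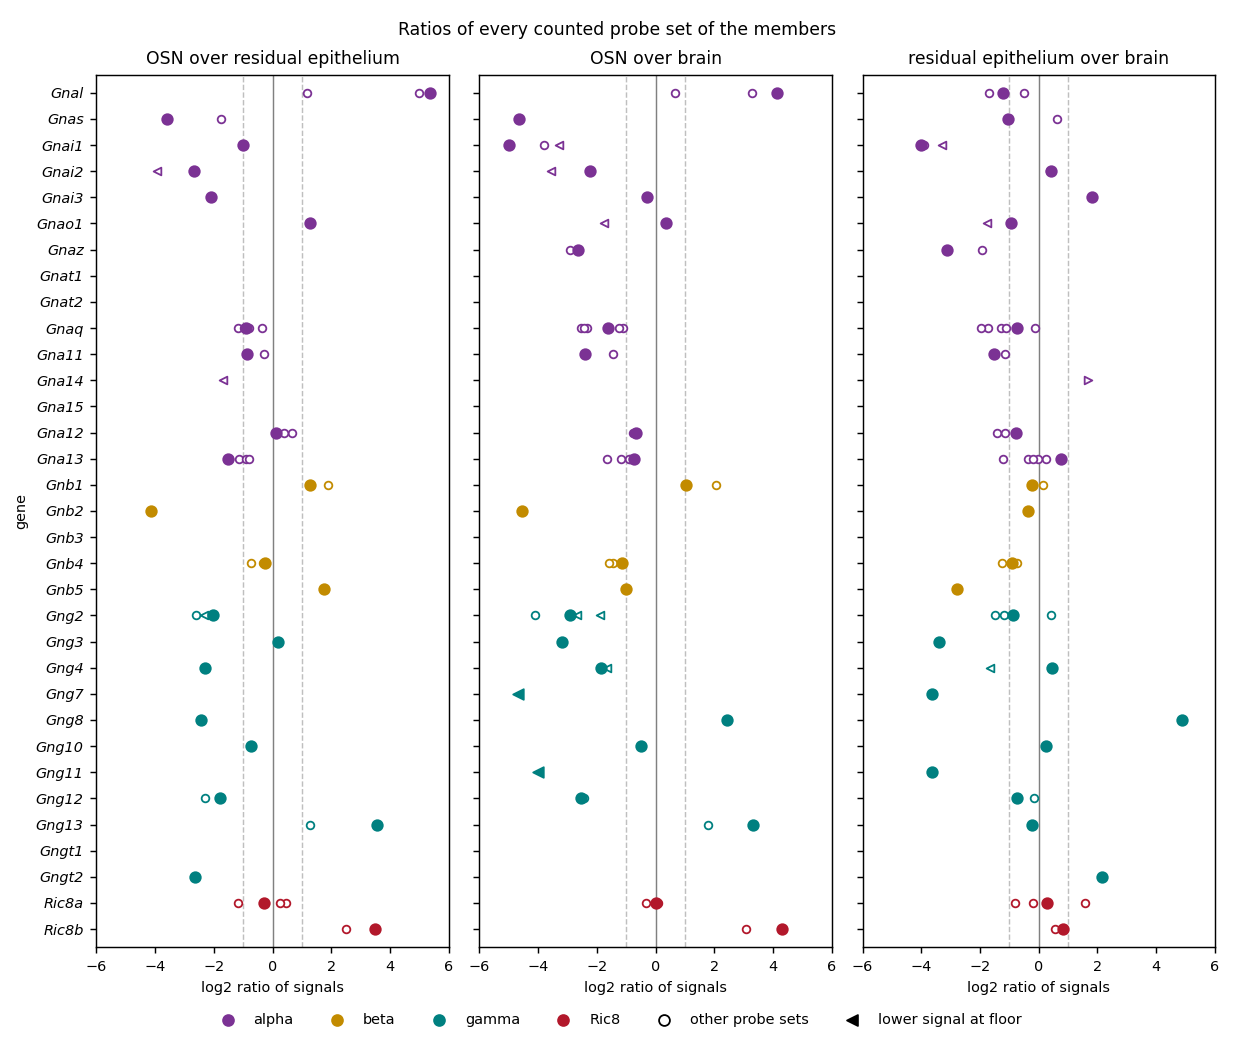
Log2 ratio of every counted probe set in the 3 comparisons, by gene, 1 array per population. Filled points are the probe set used for the gene, open points the others, triangles have the lower signal at the floor, and dashed lines mark 2-fold. The filled points of Gnal, Gng13 and Ric8b lie right of the line in both OSN panels. An open Gnal point lies inside the line at 0.66 in OSNs over brain. The spread between probe sets was up to 4.19 log2 units for Gnal.

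Counted over the whole set, more members were lower than higher in sorted OSNs, more clearly against brain than against residual epithelium. Against residual epithelium, calls in both directions were more frequent among members than among all counted genes. In OSNs over residual epithelium 24 members were counted, of which 6 were at least 2-fold higher (12.8% of 12254 counted genes were) and 10 were lower (18.7% of genes were). The median log2 ratio was -0.88, beside -0.05 over all counted genes. The higher genes were Gnal, Gnao1, Gnb1, Gnb5, Gng13 and Ric8b, and the lower were Gnas, Gnai2, Gnai3, Gna13, Gnb2, Gng2, Gng4, Gng8, Gng12 and Gngt2. Of the lower genes, 3 (Gnb2, Gng12 and Gngt2) were counted through the residual array only, which fixes their sign. Among the 20 members with both signals above the chip median, 6 were higher and 7 lower, beside 11.6% and 9.97% of all such genes. The surplus of lower over higher members in this comparison thus rested largely on genes whose sign the filter fixed.

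In OSNs over brain 26 members were counted, with 5 higher (19.2%, where 18.5% of 12380 genes were) and 15 lower (57.7%, where 21.1% were). The median was -1.39, beside 0.05. The higher genes were Gnal, Gnb1, Gng8, Gng13 and Ric8b. Lower were 6 alpha genes (Gnas, Gnai1, Gnai2, Gnaz, Gnaq and Gna11), 3 beta genes (Gnb2, Gnb4 and Gnb5) and 6 gamma genes (Gng2, Gng3, Gng4, Gng7, Gng11 and Gng12). Of these 15, 6 were counted through the brain array only, which fixes their sign. Among the 20 members with both signals above the chip median, 5 were higher and 9 lower, beside 16.4% and 11.9% of all such genes. Both OSN comparisons use the same OSN arrays, so their agreement for a gene is not independent.

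Between residual epithelium and brain more members were lower than higher. Of 27 counted, 3 were higher (11.1%, where 22.5% of 12916 genes were) and 9 lower (33.3%, where 18.9% were), with a median of -0.74 beside 0.12. The higher genes were Gnai3, Gng8 and Gngt2, and the lower were Gnal, Gnas, Gnai1, Gnaz, Gna11, Gnb5, Gng3, Gng7 and Gng11. Gngt2, and Gnaz, Gng7 and Gng11 on the lower side, were counted through 1 array only, which fixes their sign. Among the 23 members with both signals above the chip median, 2 were higher and 6 lower, beside 16.3% and 13.6% of all such genes. By class, the median was -1.91 for 8 gamma genes in sorted OSNs over residual epithelium and -2.53 for 9 in sorted OSNs over brain. For alpha genes it was -0.94 (10 genes) and -1.62 (11 genes). The 4 beta genes had 0.51 and -1.08, but ran from -4.15 to 1.76 in the first comparison. Over all counted genes the medians were -0.05 and 0.05. The class medians include genes counted through 1 array only, such as Gng12 and Gnb2 in both comparisons.

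**Figure D4:**
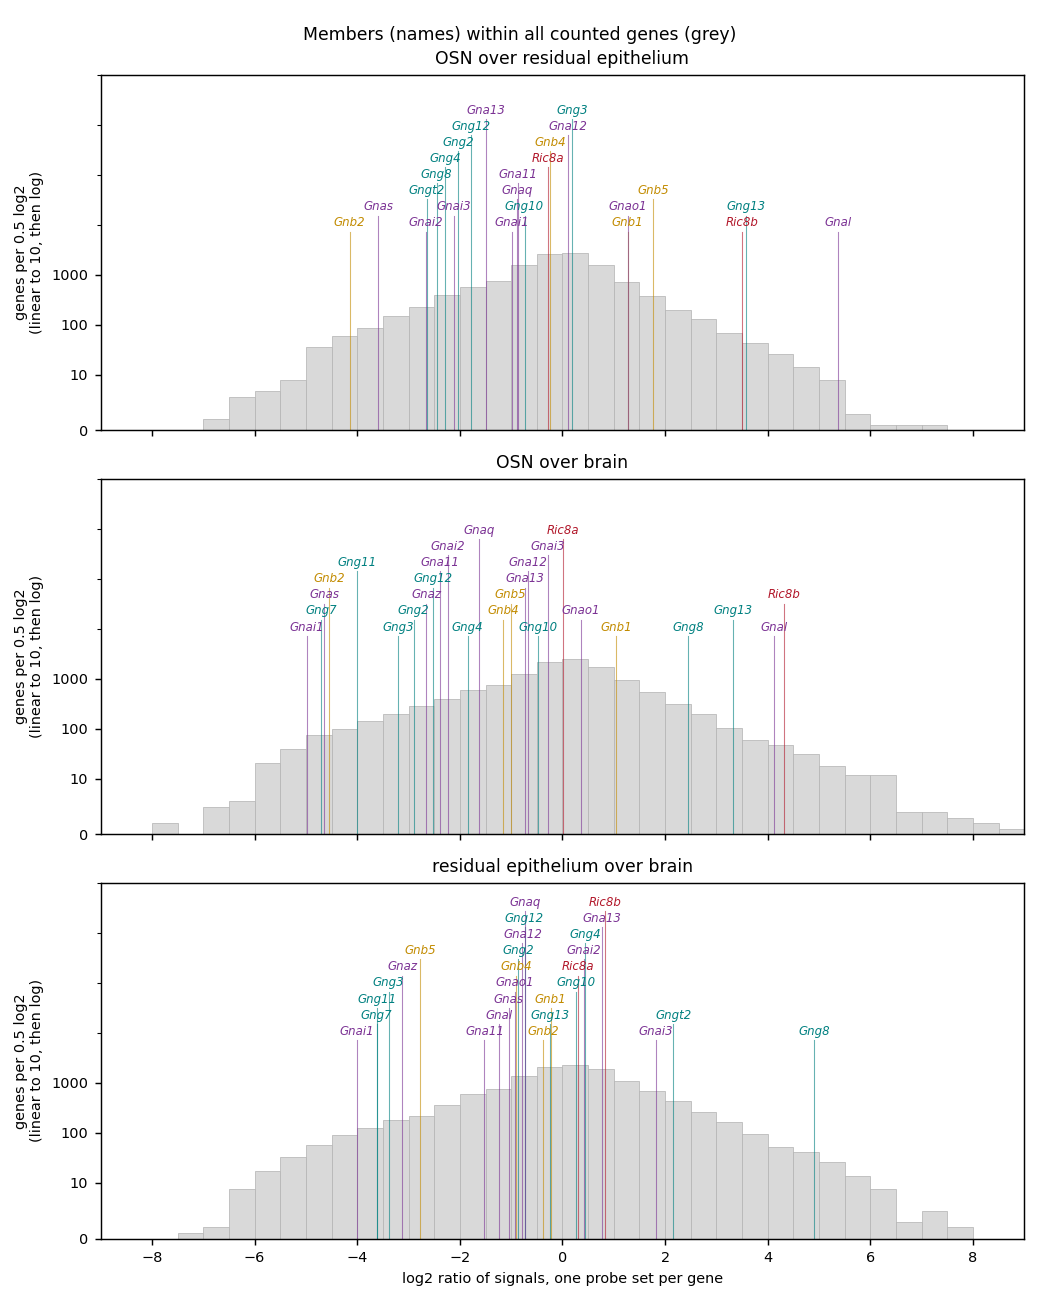
Log2 ratios of all counted genes, 1 probe set per gene (grey bars, genes per 0.5 log2 units, an axis that is linear to 10 and logarithmic above), with each counted member named at its own ratio in the 3 comparisons. Gnal stands at 5.36 and Gnb2 at -4.15 in sorted OSNs over residual epithelium, and Gng8 at 4.90 in the residual epithelium over brain.

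The size of these ratios can be set beside the spread that the arrays allow to be measured. For 100 probe sets present on both chips, the log2 ratio on chip B minus that on chip A averaged -0.23 (SD 0.25) in sorted OSNs over residual epithelium, 0.19 (SD 0.29) in sorted OSNs over brain and 0.42 (SD 0.34) in the residual epithelium over brain. Gnal, Ric8b, Gng8, Gng2, Gng7 and Gnaq, among others, were read on chip B and Gnas, Gnb1, Gnb2 and Gng13 on chip A, so differences between genes of different chips include this offset. This spread does not stand for that between animals, and the labels do not say whether both chips had the same RNA.

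Genes that work next to the G protein were examined as lists. Of all counted genes, 12.8% were higher and 18.7% lower in OSNs over residual epithelium. In OSNs over brain these shares were 18.5% and 21.1%. In the list of direct alpha effectors (adenylyl cyclases, phospholipases C beta, genes of the Arhgef group and phosphodiesterase 6), 11 of 20 genes passed the signal filter within the epithelium, with 3 higher in sorted OSNs, 3 lower and a median of 0.25. Adcy3, the cyclase that G olf stimulates, gave 13952 in sorted OSNs, 762.3 in the residual epithelium and 590.5 in brain (18.3-fold higher in sorted OSNs than in the residual epithelium). Arhgef12 was 2.28-fold higher and Plcb4 2.22-fold. A further Arhgef12 probe set was at -0.47 log2 units. Adcy7, known from blood cells, was at least 8.69-fold lower and Adcy1, abundant in brain, 2.99-fold lower, and Arhgef1 was 2.59-fold lower. Against brain 2 of 13 counted effector genes were higher, 7 were lower and the median was -1.51.

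The list of olfactory transduction genes, which also holds Adcy3 and the sorting gene Omp, had 14 genes, 11 of them with a value. Cngb1 was below the chip median throughout and not counted (138.6 in OSNs, 97.2 in residual cells and 112.5 in brain). Of the 10 counted genes, 9 were at least 2-fold above residual epithelium and none was lower (median 3.90). Cnga4 (82.8-fold) and Omp (44.4-fold) were highest, and Pde1c (4.89-fold, probe sets from 0.55 to 5.04 log2 units) and Slc12a2 (1.42-fold) were lowest. Against brain 9 of 10 were higher and none lower (median 3.72). By main probe sets, Gnal had a fold over residual epithelium near that of Omp, while Gng13 and Ric8b had smaller ones, nearer to that of Adcy3. Adcy3 probe sets ran from 2.95 to 5.91 log2 units and those of Gnal from 1.17 to 5.36, so this order depends on the probe set.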

How the data were processed

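Expression was measured in 3 populations on 2 Affymetrix chips, 6 arrays in all. The deposited values are probe set intensities on a linear scale, single colour. Per the submitters' processing notes 5 of the 6 arrays were computed with MAS5, version not named, and the notes on the chip A brain array name no tool. Trimmed at percentile 2 and percentile 98, the mean signal of every array was within 499.6 to 499.87, so the authors' deposited values had been scaled to a common level. Signals above percentile 98 did not enter that mean, and the effect of very abundant transcripts on other signals was not tested. Detection calls were not used here. For arrays, their number limits the precision.

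Gene names came from the platform annotation. Of 35041 probe sets with a single symbol, 34837 were matched by Entrez identifier to the RefSeq table (GRCm38.p6) and took its symbol. This left 18193 genes. All 84 member probe sets kept their platform symbol. The files name no genome build. No p-value is given. The members, gene lists and marker lists were chosen with earlier results of these data known. The text names every member, every probe set of a member whose probe sets differed in sign or by over 1 log2 unit (by range for Gnaq and Gna13), and the 2 highest and 2 lowest counted genes of each partner list in sorted OSNs over residual epithelium. Gng8 was left out of the immature OSN markers. The computation was tested on simulated arrays. Alternatives tried were a floor at percentile 10 or at percentile 40, a pseudocount of 50, no signal filter and a filter at percentile 75, 3 other scalings, 2 other choices of probe set and platform symbols as given. A filter on the mean of all 3 arrays was chosen after seeing the data. Protein sequences were not used here. Computation used numpy 2.4.6 and pandas 2.3.3 under Python 3.11.15, and plots were drawn with matplotlib 3.10.9.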

Additional observations from a re-analysis of the deposited data

How the results depend on the processing

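Under 12 alternatives the count of members called in each comparison and direction stayed within 1.5 times its value. In OSNs over residual epithelium the alternatives gave 4 to 6 higher and 8 to 12 lower members, in sorted OSNs over brain 4 to 5 and 12 to 15, and in the residual epithelium over brain 2 to 4 and 8 to 12. Of 901 single-gene values recomputed, 835 moved by less than the SD between chips. The signal filters and the platform symbols cannot change a ratio, so their values were among these by construction. With the median over probe sets 48 values moved by less than that SD and 29 by more. In all, 65 moved by more and 1 changed sign while called. That was Gnas in the residual epithelium over brain, at 0.64 log2 units without the _s_at, _x_at and _a_at probe sets in place of -1.05, because another probe set then stood for the gene. Gnb1, Gnb4 and Gnb5 lost a call in sorted OSNs over brain under some alternatives, each with a main log2 ratio near the 2-fold line (1.04, -1.15 and -1.01). Gnal, Gnb1, Gng13 and Ric8b were counted and called higher than residual epithelium under every alternative, and Gnas, Gnai3, Gna13, Gnb2, Gng2 and Gng8 lower. Scaling on the shared probe sets shifted the median of all genes by -0.20 in sorted OSNs over brain and by -0.22 in the residual epithelium over brain. No paired analysis was possible because each group has 1 array. Signals under the floor in 1 population, such as that of Gng7 in sorted OSNs, give only bounds. Gnat1 and Gngt1 were under the floor in every population and give no ratio.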

Other observations

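Among genes whose products fold, prenylate or bind the subunits, 19 were counted in sorted OSNs over residual epithelium, with 2 at least 2-fold higher, 3 lower and a median of -0.04. Kcnj6, a potassium channel opened by beta-gamma, gave 301.9 in sorted OSNs, 118.9 in the residual epithelium and 241.4 in brain, 2.54-fold higher in sorted OSNs than in the residual epithelium. Rap1gap was 2.20-fold higher. Gpsm2, which binds inhibitory alpha subunits during spindle orientation, was 5.11-fold lower (118.2 in sorted OSNs, 603.9 in the residual epithelium and 133.0 in brain), and Gpsm3 was 3.44-fold lower. The next 3 genes were chosen after their values were seen. The chaperone Pdcl, which helps to assemble beta-gamma, was level in sorted OSNs and residual epithelium (1338.5 and 1377.9) and 2.31-fold higher in sorted OSNs than in brain (579.0). The prenyl transferase subunit Pggt1b, which helps to put the lipid tail on gamma subunits, gave 2631.6 in OSNs, 2126.7 in residual cells and 1036.8 in brain, 2.54-fold higher in sorted OSNs than in brain, though its probe sets ran from 0.09 to 1.34 log2 units. Pcp2, a Purkinje cell partner of inhibitory alpha subunits, was at least 43.2-fold lower in sorted OSNs than in brain. Against brain 2 of 21 counted genes of this list were higher and 7 lower, with a median of -0.36. Of all counted genes 18.5% were higher and 21.1% lower against brain, and 12.8% and 18.7% against residual epithelium.

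Markers of other cells that could carry members gave the following values. Of 3 counted vomeronasal and GC-D neuron markers, 2 were lower in sorted OSNs than in the residual epithelium (median -1.81). Car2, on chip A, gave 2633.3 in OSNs, 9243.6 in residual cells and 6269.2 in brain. The chip B sum was 1696.7 in sorted OSNs, 8923.2 in the residual epithelium and 8151.1 in brain. Pde2a carried most of that sum (1147.9 in OSNs, 8120.5 in residual cells and 7809.8 in brain). Its probe sets ran from -2.82 to -0.17 log2 units in OSNs over residual epithelium. Trpc2, the defining vomeronasal channel, gave 548.8 in OSNs, 802.7 in residual cells and 341.3 in brain. Basal cell markers were lower in sorted OSNs for 4 of 4 (median -2.48), microvillar and tuft cell markers for 2 of 4 (median -1.18), and supporting and gland cell markers for 2 of 5 (median -0.59). Endothelial and stromal markers were lower for 2 of 3, platelet markers for 1 of 2, and dissociation response genes for 4 of 5 (median -2.37). Of all counted genes 18.7% were lower in sorted OSNs than in the residual epithelium. The part of any of these cells in the members' ratios was not tested.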
